A study of Mus musculus with 5 samples.

Results

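Transcription factor genes of the luminal and milk-secreting lineages of the mammary gland were followed in mice in which a cyclin D1 transgene was induced. The 10 genes, Elf5, Ehf, Elf3, Gata3, Foxa1, Tfap2c, Nfib, Grhl2, Cebpb and Sox9, were chosen by symbol, with earlier results of these data known. Each was read from whichever of its annotated probe sets had the highest mean. The genes are 10 of 19938 tested, and all 10 were measured, with no filter on low values. Total RNA of whole mammary gland from FvB/N females aged 8 weeks was hybridised to Affymetrix whole-transcript arrays, 1 array per mouse. There were 3 mice carrying both rtTA and the cyclin D1 transgene (rtTA/CCND1, "cyclin D1 glands") and 2 mice carrying rtTA alone ("control glands"). All 5 carry rtTA, the doxycycline-dependent transactivator, under the MMTV promoter, which is active in mammary epithelium and reaches only part of the cells of a whole gland. Doxycycline was given for 7 days according to the treatment text, which speaks of a "KE mutant" of CCND1 and leaves unsaid whether mice with rtTA alone had the drug. The design text calls the mice separate animals.

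The alveolar cells of the mammary gland arise from luminal progenitors and make milk. Elf5, an ETS-family factor, directs alveolar differentiation downstream of prolactin, while Gata3 and Foxa1 maintain luminal and hormone-sensing cells. Members of the NFI, C/EBP, AP-2 and grainyhead-like families act in epithelial identity or in the transcription of milk genes, and Sox9 marks progenitors.

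Because Elf5 had the largest difference among the 10 genes, the sequences before its annotated starts are shown. RefSeq's promoter table (GRCm38.p6) held entries for 5 of the 10 genes, with 6 windows in all, because Elf5 had 2 start sites. The first window is chr2:103411848-103412097 and the second chr2:103423818-103424067, each the 250 bases before a start on the plus strand, with motif matches in capitals.
Elf5 first start: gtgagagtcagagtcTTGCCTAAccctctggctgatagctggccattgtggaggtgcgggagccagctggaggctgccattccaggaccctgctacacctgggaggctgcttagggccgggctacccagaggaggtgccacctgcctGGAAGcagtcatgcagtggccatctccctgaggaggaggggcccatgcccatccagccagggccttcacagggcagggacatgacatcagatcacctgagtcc
Elf5 second start: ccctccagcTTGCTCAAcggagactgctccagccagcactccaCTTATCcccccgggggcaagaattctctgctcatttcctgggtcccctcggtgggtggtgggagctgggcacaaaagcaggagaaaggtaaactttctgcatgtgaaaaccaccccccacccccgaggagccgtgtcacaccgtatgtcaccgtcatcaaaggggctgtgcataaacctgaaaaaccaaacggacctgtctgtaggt
The capitals in the first window are a C/EBP match (TTGCNNAA, 235 bases before the start) and an ETS match (GGAAG, 103 bases before it). Those in the second are a C/EBP match at 241 bases and, on the minus strand, a GATA match (GATAAG) at 207 bases. No motif overlapped another. On both strands of all 32851 windows of this length, GGAAG was present in 64.1%, TTGCNNAA in 9.56% and GATAAG in 6.55%. Letters for STAT5 (TTCNNNGAA, in 7.02% of windows), FOXA (TGTTTAC, 3.17%), AP-2 (GCCNNNGGC, 13.7%), NFI (TTGGCA, 12.3%), GRHL (ACCGGTT, 0.831%) and E2F (TTCGCGC or TTGGCGC, 3.14%) had no match in either Elf5 window. Elsewhere, Foxa1's own window held a FOXA match at 141 bases before its start, Gata3's held 3 AP-2 matches and Cebpb's held an ETS match at 197 bases, while Elf3's window held none of the letters searched. These matches describe the letters only.

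Values are the authors' log2 expression values, and differences are cyclin D1 minus control. The arrays differed in spread, which bears on every difference below. The SD across genes was 1.2 to 1.38 on the cyclin D1 arrays and 0.735 and 0.926 on the control arrays. Genes with a high mean tended to differ upwards, with a median log2 difference of 1.59 in the top decile of mean expression and -0.29 in the lowest. Deciles rank genes by their mean over all 5 arrays, so a gene's own rise in cyclin D1 glands raises its rank. The cause of the unequal spread was not tested. Because of that spread, differences are also given after the 5 arrays were quantile-normalized again ("renormalized"). The mean of 1027 olfactory receptor genes, 1.97 to 2.23 on the cyclin D1 arrays and 2.38 and 2.52 on the controls, served as a rough floor. Ccnd1 itself had a log2 difference of 0.75 (95% confidence interval -0.07 to 1.57, limma adjusted p = 0.218) that turned to -0.14 when renormalized, and the labels do not say whether its probe set reads the transgene.

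Of the 10 genes, Elf5 and Ehf rose and 0 fell at a limma adjusted p under 0.05, where 5.38% of all genes were called higher and 0.687% lower. The 3 cyclin D1 arrays lay above both controls for Elf5, Ehf, Nfib and Sox9, an order seen in 22.4% of all genes, and below both for Elf3, as for 22.6% of all genes. The median log2 difference of the 10 was 0.40, against -0.05 over all genes tested. By mean expression over all 5 arrays, 4 of the 10 were in the top decile and 3 in the ninth. In those deciles 36.0% and 13.4% of genes were called higher, but a gene's own rise helps to place it there. After renormalization the median was -0.22, against -0.02 over all genes, and 0 of the 10 passed, where 0.256% of all genes were higher and 0.105% lower. Without adjustment for multiple tests, 3 of the 10 passed 0.05 in limma on each scale, where 26.3% of all genes did as deposited and 18.7% renormalized. In RNA of whole gland, fewer cells of a type and less RNA per cell cannot be told apart, and neither can their opposites.

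**Figure D1:**
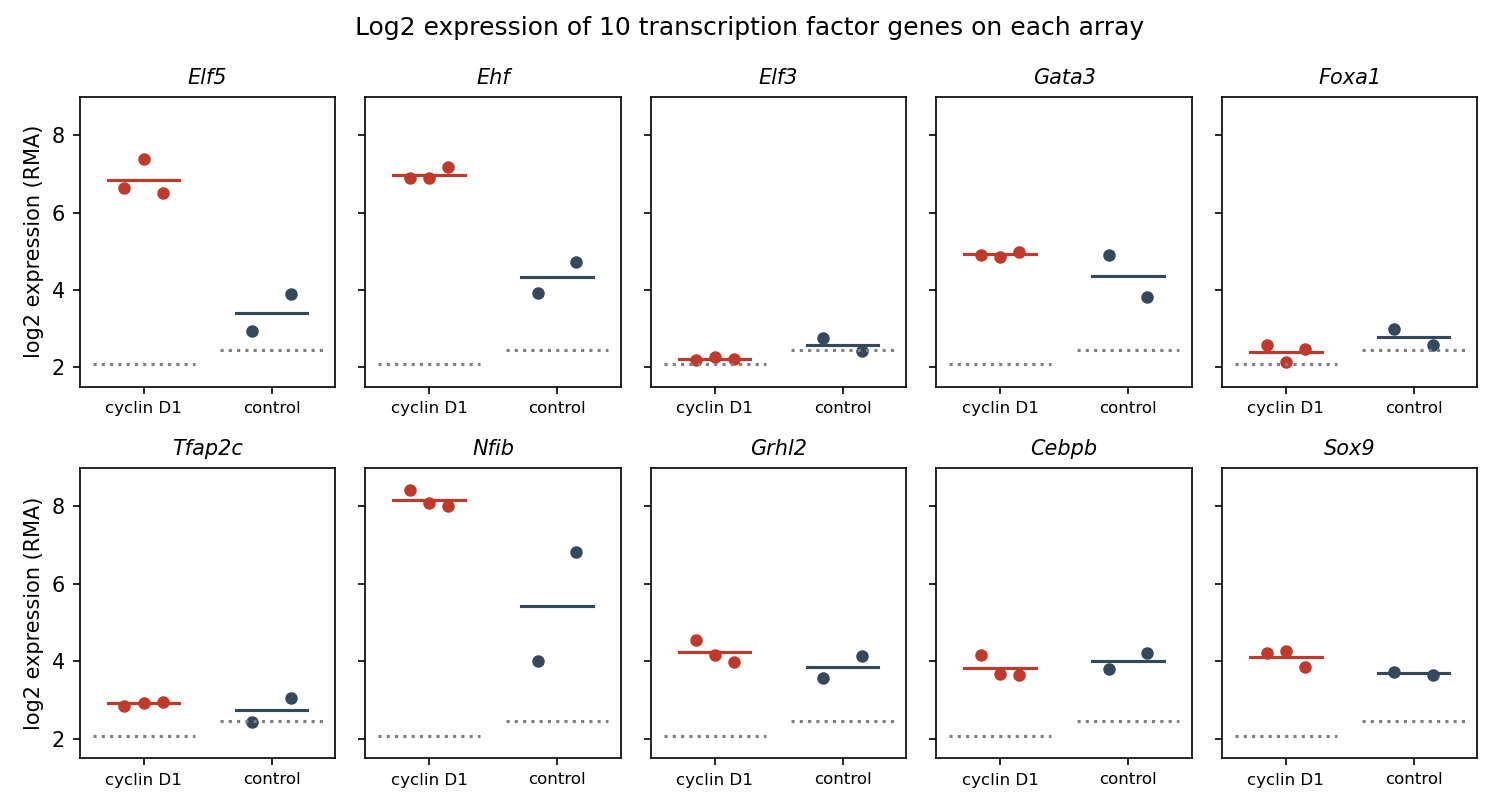
Log2 expression (RMA, vertical axis) of the 10 genes in 3 cyclin D1 glands (red, left) and 2 control glands (dark, right). Points are arrays, lines group means, and dotted lines the mean of olfactory receptor genes in each group. Elf5 lies between 6.52 and 7.39 in cyclin D1 glands and at 2.94 and 3.89 in controls, while Elf3 and Foxa1 lie near the dotted lines in both.

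Of the 3 epithelium-specific ETS factors, Elf5 and Ehf rose and Elf3 did not pass. Elf5, the alveolar regulator, had log2 values of 6.64, 7.39 and 6.52 in cyclin D1 glands, against 2.94 and 3.89 in control glands. The lowest cyclin D1 value stood 2.63 above the higher control, and the highest was in cyclin D1 replicate 2. The difference of 3.43 (95% confidence interval 2.45 to 4.41, limma adjusted p = 0.0192) is a 10.8-fold rise, with an interval of 5.46 to 21.3. The fold is inexact, because the control 1 value lay 0.42 above the olfactory receptor mean of its array. Renormalized, Elf5 differed by 2.58 (1.55 to 3.61, adjusted p = 0.063), again with all 3 cyclin D1 arrays above both controls, as for 20.1% of all genes on that scale.

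Ehf, a related ETS factor of glandular epithelia, had 6.88, 6.88 and 7.17 in cyclin D1 glands, against 3.92 and 4.73 in control glands. The groups were again far apart, and the highest Ehf value was in cyclin D1 replicate 3, whereas that of Elf5 was in replicate 2. Ehf rose 6.30-fold (95% confidence interval 3.92 to 10.1, limma adjusted p = 0.0168). Its renormalized difference was 1.21 (0.52 to 1.91, adjusted p = 0.108), with the groups still apart.

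Both calls depended on which mice were included, as did calls over all genes. With 1 cyclin D1 array left out, 0 of all genes were called higher without replicate 1 or 2 and 299 without replicate 3. With all 5 arrays 1072 were. Left out in turn, each cyclin D1 array and control 1 left Elf5 and Ehf short of the threshold, with adjusted p-values of 0.0541 to 0.106, while their log2 differences stayed at 2.96 to 3.60 for Elf5 and 2.25 to 2.7 for Ehf. Without control 2 both passed, at 3.90 and 3.06.

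Elf3, the third factor of this ETS subfamily, was dim on every array. It had 2.19, 2.25 and 2.23 in cyclin D1 glands, against 2.76 and 2.42 in control glands. The cyclin D1 values were the lower ones, but they lay at most 0.29 above the olfactory receptor mean of their array and, in replicate 3, just below it. The log2 difference of -0.36 (95% confidence interval -0.75 to 0.03, limma adjusted p = 0.214) did not pass and is inexact so close to the floor. The renormalized value was -0.21, with the groups overlapping.

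Ehf and Elf5 are consecutive protein-coding genes on mouse chromosome 2 in the RefSeq table, with at least 2 long non-coding RNA genes between them. The next protein-coding genes outward are Apip, an enzyme of methionine salvage, beside Ehf, and Cat, the hydrogen peroxide-degrading catalase, beside Elf5. Cat had 4.99, 4.99 and 5.41 in cyclin D1 glands, against 3.92 and 4.0 in control glands. Its rise of 1.17 in log2 units (SE 0.18, limma adjusted p = 0.0332) came to 0.09 when renormalized. Apip differed by 0.33 (SE 0.15, adjusted p = 0.231), and its sign turned on renormalization, to -0.53. As deposited, the 3 cyclin D1 arrays lay above both controls for Cat and for Apip, as for 22.4% of all genes. The long non-coding RNA gene BC016548, the immediate neighbour of Elf5, differed by -0.07 (SE 0.15, adjusted p = 0.771), or -0.17 renormalized, with overlapping groups as deposited. The differences of Elf5 and Ehf were thus larger than those of the flanking genes measured, but no test of that contrast was run.

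**Figure D2:**
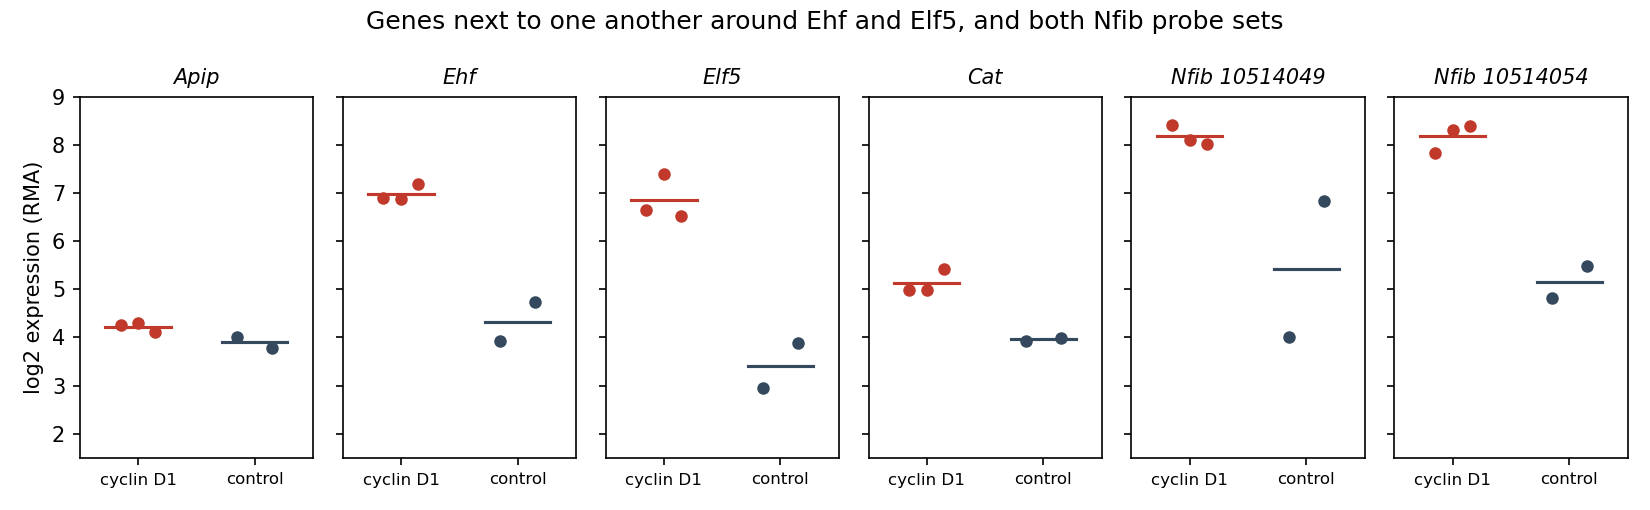
Log2 expression (RMA, vertical axis) of 4 consecutive protein-coding genes in their order along the chromosome (Apip, Ehf, Elf5, Cat) and of both Nfib probe sets, in 3 cyclin D1 glands (red, left) and 2 control glands (dark, right). Points are arrays and lines group means. Ehf and Elf5 are set well apart between the groups. Apip and Cat differ by 0.33 and 1.17, also with all 3 cyclin D1 points above both controls. Probe set 10514049 of Nfib shows the wide gap between the 2 controls, at 4.0 and 6.83.

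Nfib, a nuclear factor I protein that binds regulatory regions of milk genes, stood higher in cyclin D1 glands on both of its probe sets, but the probe set read by the rule did not pass. Probe set 10514049 had 8.42, 8.09 and 8.01 in cyclin D1 glands, against 4.0 and 6.83 in control glands. The groups did not overlap, yet the controls lay 2.83 apart, and the log2 difference of 2.75 had a 95% confidence interval of 0.73 to 4.78 (limma adjusted p = 0.108). Probe set 10514054 had 7.82, 8.30 and 8.39 in cyclin D1 glands, against 4.82 and 5.48 in control glands. Here the controls were close, and the difference of 3.02 (2.27 to 3.77) passed in a fit over all 35556 probe sets (limma adjusted p = 0.0264). With the mean of both probe sets the difference was 2.89 (adjusted p = 0.0375), so that 3 of the 10 genes rose, where 5.49% of all genes did and 0.757% fell. Leaving out control 1 brought the value of probe set 10514049 to 1.34, and leaving out control 2 brought it to 4.17 (adjusted p = 0.0301). Renormalized, probe set 10514049 differed by 1.23 (-0.54 to 2.99) and the groups overlapped. Probe set 10514054 and the mean of both were not renormalized.

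The luminal identity factors did not pass the test. Gata3, required for luminal differentiation, had 4.90, 4.86 and 4.99 in cyclin D1 glands, against 4.91 and 3.83 in control glands. Control 1 lay among the cyclin D1 values and control 2 well below them. The log2 difference was 0.55 (95% confidence interval -0.27 to 1.37, limma adjusted p = 0.335). It was 1.09 without control 1 and 0.01 without control 2, and its sign turned to -0.72 (-2.37 to 0.93) after renormalization.

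Foxa1, a pioneer factor for the estrogen receptor, was dim, with 2.57, 2.15 and 2.48 in cyclin D1 glands, against 2.99 and 2.57 in control glands. The groups met at 2.57, and the log2 difference was -0.38 (95% confidence interval -0.91 to 0.14, limma adjusted p = 0.302), or -0.29 renormalized. Tfap2c, the AP-2 gamma protein of luminal cells, had 2.84, 2.93 and 2.96 in cyclin D1 glands, against 2.43 and 3.05 in control glands. The controls lay on either side of the cyclin D1 values, control 1 below the olfactory receptor mean, and the difference was 0.17 (-0.37 to 0.71, adjusted p = 0.632), or 0.26 renormalized (-0.34 to 0.87).

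Grhl2, a grainyhead-like factor that maintains epithelial junctions, had 4.55, 4.16 and 3.97 in cyclin D1 glands, against 3.56 and 4.15 in control glands. Control 2 lay within the cyclin D1 range, and the log2 difference of 0.37 (95% confidence interval -0.28 to 1.03, limma adjusted p = 0.398) turned to -0.32 after renormalization.

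Cebpb, the C/EBP factor needed for ductal and alveolar development, had 4.17, 3.68 and 3.65 in cyclin D1 glands, against 3.81 and 4.22 in control glands. The groups overlapped as deposited, and the log2 difference was -0.18 (95% confidence interval -0.76 to 0.40, limma adjusted p = 0.639). After renormalization Cebpb had 3.95, 3.52 and 3.58 in cyclin D1 glands, against 4.59 and 4.70 in control glands. On that scale all 3 cyclin D1 values were below both controls, as for 19.5% of all genes, with a difference of -0.97 (-1.42 to -0.51, adjusted p = 0.0777).

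Sox9, a factor of luminal progenitors, had 4.21, 4.26 and 3.85 in cyclin D1 glands, against 3.73 and 3.65 in control glands. The groups did not overlap, but the log2 difference was small at 0.42 (95% confidence interval -0.02 to 0.86, limma adjusted p = 0.205). It turned to -0.23 (-0.75 to 0.30) after renormalization, with overlapping groups.

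**Figure D3:**
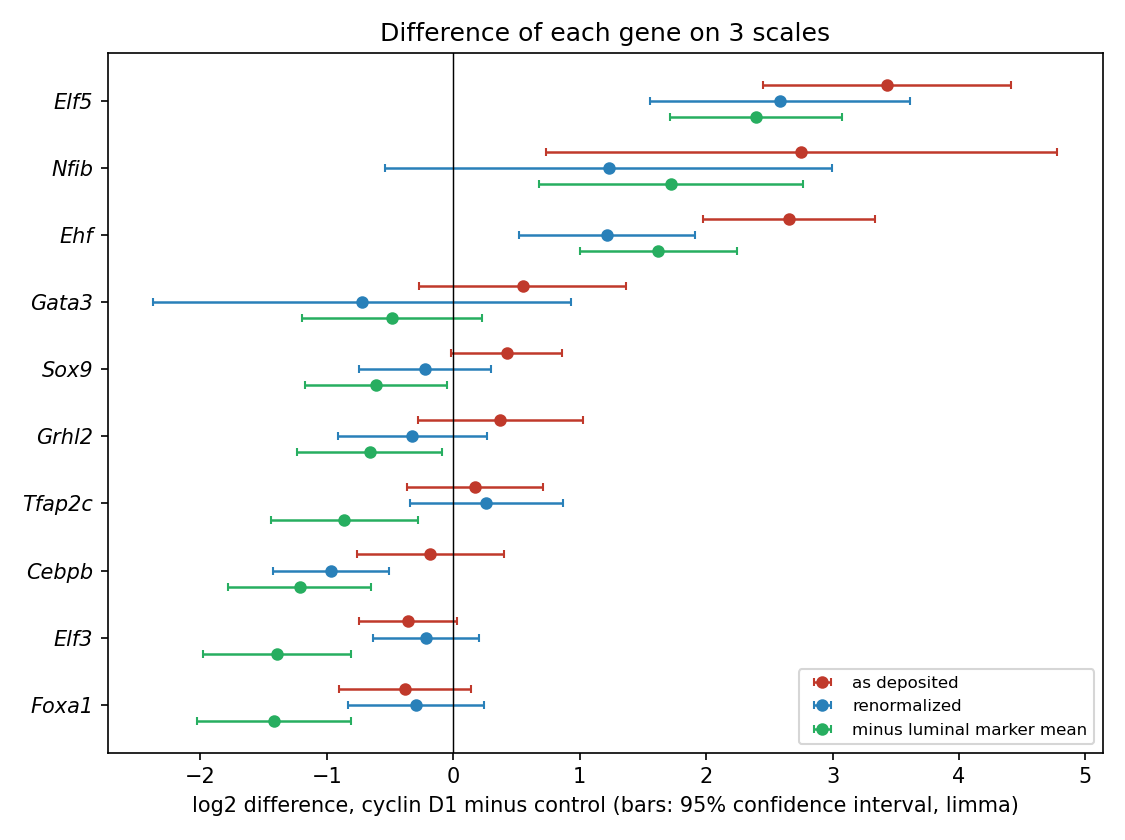
Log2 difference, cyclin D1 minus control (horizontal axis), of each gene on 3 scales, with 95% confidence intervals from limma (3 cyclin D1 and 2 control arrays): as deposited (red), renormalized (blue) and after subtracting the mean of 8 luminal markers on each array (green). The points of Elf5, Ehf and Nfib lie above 0 on all 3 scales, though the renormalized interval of Nfib includes 0. The points of Gata3, Sox9 and Grhl2 lie above 0 only as deposited, where their intervals include 0.

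Of 8 markers of luminal epithelium, 2 rose, where 5.38% of all genes were called higher. The markers (Krt8, Krt18, Krt19, Epcam, Cdh1, Cldn3, Cldn4 and Cldn7) had mean log2 values of 4.64, 4.51 and 4.35 in cyclin D1 glands, against 3.37 and 3.57 in control glands. All 8 had positive differences, with a median of 0.79. Those that rose were Epcam, an epithelial adhesion protein, by 2.49 (SE 0.28, limma adjusted p = 0.0184) and Cdh1, or E-cadherin, by 1.37 (SE 0.17, adjusted p = 0.0228). Renormalized, the median was 0.42, 7 of 8 differences were positive and 0 passed, with Epcam at 1.54 (adjusted p = 0.063) and Cdh1 at 0.88 (adjusted p = 0.0801). Adipocyte markers had mean log2 values of 5.85, 4.55 and 5.34 in cyclin D1 glands, against 5.06 and 5.13 in control glands, and 0 of 8 passed, with or without adjustment. Their median difference was 0.11 as deposited, with 4 of 8 positive, and -0.86 renormalized, with 1 of 8 positive. Among basal or myoepithelial markers 1 of 8 passed, smooth muscle actin Acta2, by 2.48 (SE 0.40, adjusted p = 0.0349). Its renormalized difference was 0.92 (adjusted p = 0.177). Differences were negative in 4 of these 8 markers, and their median was 0.22, or -0.004 renormalized. Of 6 fibroblast, 5 endothelial, 6 leukocyte and 5 skeletal muscle markers measured, 0 passed in limma. Without adjustment 1 leukocyte marker did, where 26.3% of all genes did. The part of cell composition in the differences of Elf5 and Ehf was not tested. The subtraction that follows cannot decide it, because the marker mean differed by 1.03 and the median gene of the top decile by 1.59.

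With the luminal marker mean subtracted on each array, Elf5 stood at 2.0, 2.88 and 2.17 in cyclin D1 glands, against -0.42 and 0.32 in control glands. Ehf stood at 2.25, 2.38 and 2.82 in cyclin D1 glands, against 0.56 and 1.16 in control glands. Both genes thus differed by more than the markers did on average, by 2.40 for Elf5 (95% confidence interval 1.72 to 3.08, limma adjusted p = 0.000289) and by 1.62 for Ehf (1.0 to 2.24, adjusted p = 0.000533). Nfib passed as well, at 1.72 (0.68 to 2.76, adjusted p = 0.00455). This subtraction moved the median of all genes by -1.03, so that 4.95% of all genes were called higher and 77.4% lower. The 6 of the 10 genes called lower on it (Elf3, Foxa1, Cebpb, Tfap2c, Grhl2 and Sox9) are near that share, and the values record only that they did not keep pace with the markers.

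After renormalization and the same subtraction, 1 of the 10 genes was higher, where 1.2% of all genes were, and 1 lower, where 15.7% were. Elf5 differed by 2.12 (95% confidence interval 1.11 to 3.13, limma adjusted p = 0.0346), with 1.60, 2.39 and 1.89 in cyclin D1 glands, against -0.79 and 0.47 in control glands. Ehf differed by 0.75 (0.07 to 1.43, adjusted p = 0.0876). Cebpb was the lower gene, at -0.36, -0.60 and -0.61 in cyclin D1 glands, against 0.85 and 0.96 in control glands, a difference of -1.43 (-1.86 to -1.0, adjusted p = 0.0235).

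Within an array, Elf5 also shifted against Epcam, a partner chosen after its values were seen. Elf5 minus Epcam was 0.53, 0.82 and 0.62 in cyclin D1 glands, against -0.46 and -0.10 in control glands. Ehf minus Epcam was 0.78, 0.31 and 1.28 in cyclin D1 glands, against 0.52 and 0.74 in control glands, and these groups overlapped.

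Of 62 other genes listed for the same 8 families, 60 were measured, 2 rose and 0 fell, where 5.38% of all genes were called higher, with a median log2 difference of -0.01, against -0.05 over all genes. Gabpa, a widely expressed ETS factor of basal cell functions, had 7.0, 6.9 and 6.62 in cyclin D1 glands, against 3.36 and 4.77 in control glands, a rise of 2.77 (SE 0.43, limma adjusted p = 0.0318) that was 1.66 after renormalization. Nfix, a nuclear factor I protein, rose by 0.80 (SE 0.14, adjusted p = 0.0395), but its renormalized value of -0.77 had the opposite sign.

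Among 24 measured ETS genes Elf5 had the largest difference as deposited, Gabpa the second and Ehf the third, while Elf3 ranked 20 (Elf5 1, Ehf 3 and Elf3 15 renormalized). The median of the 21 other ETS genes was 0.07, and Ets2 and Elf2 differed by 0.54 and 0.78 without passing (0.58 and 0.56 renormalized). Nfib ranked 1 in its family of 4 on both scales. Gata3 ranked 1 of 6 as deposited and 6 renormalized, and Grhl2 ranked 1 of 3 as deposited and 3 renormalized. Cebpb ranked last of 6 C/EBP genes, of which Cebpg, a dimer partner of other C/EBP proteins, differed by 1.25 (SE 0.26, limma adjusted p = 0.0542) and Cebpa by 0.86. Renormalized, Cebpg differed by 0.02 and Cebpa by 0.75. Of 18 other SOX genes 0 passed in limma and 2 did without adjustment, where 26.3% of all genes did. Differences were negative in 13 of the 18. Sox10, known in mammary progenitors, differed by 0.53 (SE 0.15, adjusted p = 0.0987) and Sox13 by -0.43. Renormalized, the sign of Sox10 turned, to -0.23, and Sox13 stood at -0.85.

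**Figure D4:**
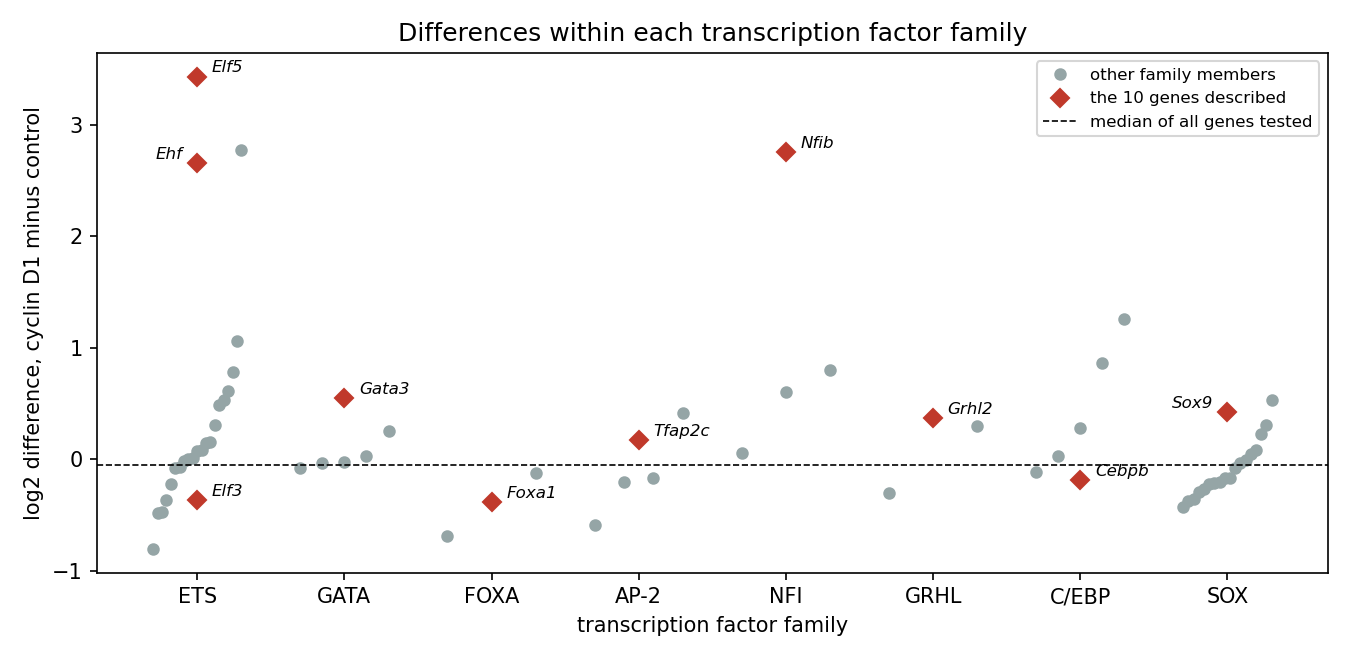
Log2 difference, cyclin D1 minus control (vertical axis), of the 10 genes (red diamonds) and of 60 other measured members of their families (grey points), by family (horizontal axis). The dashed line is the median of all genes, -0.05. Elf5, Ehf and Nfib stand above 2.6, together with 1 other ETS gene, Gabpa.

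Other regulators of the luminal and alveolar lineage did not pass singly. Of 28 listed, 26 were measured and 0 passed in limma, where 5.38% of all genes were called higher. Without adjustment 6 of the 26 passed, where 26.3% of all genes did. Differences were positive in 19, with a median of 0.17 (0.03 renormalized). Those with the smallest p were Xbp1, a factor of the secretory pathway, at 1.51 (SE 0.31, limma adjusted p = 0.0564), and Rbpj, the Notch effector, at 0.89 (SE 0.20, adjusted p = 0.0654). Id2, an inhibitor of basic helix-loop-helix factors needed for alveolar growth, differed by 2.57 (SE 0.60, adjusted p = 0.0712). Its control 1 value lay below the olfactory receptor mean, so its difference is inexact. Jak2, the prolactin receptor kinase, differed by 1.87 (SE 0.49, adjusted p = 0.0873). Renormalized, these differences were 0.32 for Xbp1, 0.06 for Rbpj, 2.16 for Id2 and 1.13 for Jak2.

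Among 16 basal and mesenchymal regulators 1 rose and 0 fell, where 5.38% of all genes were called higher. Their median was 0.29 (0.05 renormalized). Tead1, the DNA-binding partner of YAP and TAZ, rose by 1.31 (SE 0.20, limma adjusted p = 0.0317), and Wwtr1, which encodes TAZ, differed by 1.35 (SE 0.31, adjusted p = 0.0692), or 1.05 renormalized. Trp63, the p63 factor of basal cells, differed by 0.36 and Twist2 by -0.41, without passing (0.26 and -0.41 renormalized). Of 11 measured cofactors and inhibitors 2 rose and 0 fell, against the same 5.38% of all genes. The acetyltransferase gene Ep300 rose by 2.16 (SE 0.39, adjusted p = 0.0412), with control 1 below the olfactory receptor mean. The coactivator gene Cited2 rose by 1.94 (SE 0.35, adjusted p = 0.0425). Renormalized, these differences were 0.70 for Tead1, 1.75 for Ep300 and 0.53 for Cited2, and none of the 3 passed.

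Milk protein and milk fat genes include several known targets of Elf5, NFI and C/EBP factors. Of 10 measured, 6 rose and 0 fell, where 5.38% of all genes were called higher. In the top decile of mean expression over all 5 arrays, which holds the genes named here, 36.0% were. The median log2 difference of the list was 2.85. In all 10 the 3 cyclin D1 arrays lay above both controls, as for 22.4% of all genes. Csn3 rose by 2.52 (SE 0.20, limma adjusted p = 0.0147), Plin2 by 3.58 (SE 0.29, adjusted p = 0.0157) and Xdh by 3.3 (SE 0.34, adjusted p = 0.0168). Csn1s2a, a casein, had 11.8, 11.5 and 11.7 in cyclin D1 glands, against 9.47 and 10.1 in control glands, a rise of 1.85 (SE 0.23, limma adjusted p = 0.0226). Renormalized, these differences were 1.14 for Csn3, 2.79 for Plin2, 2.24 for Xdh and 0.64 for Csn1s2a. On that scale the list's median was 1.60. Only Plin2 passed of the 10 (limma adjusted p = 0.0434), where 0.256% of all genes were called higher.

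The genes whose profiles over the 5 arrays were most like those of Elf5 and Ehf were sought by the root mean square difference of log2 values, each gene's own mean removed. For Elf5 they were Hat1, a histone acetyltransferase, at 0.10, Stt3a, a catalytic subunit of N-glycosylation, at 0.11, and Cd2ap, an actin-linked adaptor, at 0.11. For Ehf they were the prolyl isomerase gene Fkbp3 at 0.07, the scaffold gene Akap9 at 0.11 and the zinc finger gene Zfp148 at 0.12. Elf5 and Ehf were each other's nearest among the 10 genes, at 0.53, but Ehf came only at rank 196 among all genes by likeness to Elf5, and Elf5 at rank 582 by likeness to Ehf. Nfib, which did not pass, was nearest to Ehf among the 10, at 0.68.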

How the data were processed

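Total RNA of 5 mammary glands was measured, 1 array per mouse, and sample titles gave the groups. The deposited log2 expression values per probe set came from RMA in Affymetrix Expression Console 1.1, per the submitters' processing notes. Its background setting is not stated there, and the log base was inferred from values of 0.83 to 12.9. No detection calls were used, and precision is limited by the 5 arrays.

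The platform annotation gave 1 symbol to 21789 of 35556 probe sets, several to 1621 and none to 12146. The probe set with the highest mean was kept for each symbol, giving 19938 genes. Entrez identifiers matched the GRCm38.p6 RefSeq table for 21698 probe sets. The comparison used limma 3.58.1 under R 4.3.3, with lmFit, eBayes, 3 residual and 2.39 prior degrees of freedom, two-sided, with Benjamini-Hochberg adjustment over all genes and a threshold of 0.05. The fit was also run on simulated data, drawn for each gene with the same SD on all 5 arrays. That run does not cover the unequal spread of the real arrays. Alternatives were quantile renormalization, centring on the median gene or on 8 luminal markers, an intensity trend, array weights, only genes brighter than the median gene, averaged probe sets, all probe sets, a replicate block and each array left out. The members, lists and motifs were chosen with earlier results of these data known. Outside the 10 genes, the text names up to 4 genes of a list with the smallest p, markers that passed, flanking genes of Elf5 and Ehf, and the 3 nearest profiles.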

Additional observations from a re-analysis of the deposited data

How the results depend on the processing

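Elf5, Ehf, Nfib, Elf3 and Foxa1 kept their sign under every alternative run (15 each, 14 for Elf3 and Foxa1, which the filter on dim genes removed). Elf5 ranged from 2.12 to 3.90 and passed in 10 of 15, and Ehf ranged from 0.75 to 3.06 and passed in 9 of 15. Of the 148 alternative values of the 10 genes, 13 turned sign. Renormalized, these were Gata3 at -0.72, Grhl2 at -0.32 and Sox9 at -0.23. With luminal markers subtracted they were Gata3 at -0.48, Tfap2c at -0.86, Grhl2 at -0.66 and Sox9 at -0.61. With both steps they were Gata3 at -1.19, Tfap2c at -0.20, Grhl2 at -0.79 and Sox9 at -0.69. With an array left out, Tfap2c ranged from -0.14 (without control 1) to 0.48 and Cebpb from -0.387 to 0.023 (without control 2). Among 13 other named genes, Nfix turned to -0.77 renormalized, -0.23 with luminal markers subtracted and -1.23 with both steps, and Cat to -0.37 with both steps; the cause was not tested.

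The count of the 10 genes called higher was 0 after renormalization (3 at an unadjusted p under 0.05) and 1 with both steps. It ranged from 0 to 3 with an array left out, with 2 to 5 at an unadjusted p under 0.05. The count called lower was 6 with luminal markers subtracted and 1 with both steps. Over all genes, 1072 were higher and 137 lower. These counts were 51 and 21 renormalized, 240 and 3123 with both steps, and 263 and 4 with array weights. With an intensity trend 622 were higher. Lower calls numbered 15429 with luminal markers subtracted and 56 without dim genes, where fewer genes were tested. With an array left out, higher calls ranged from 0 to 1365 and lower calls from 0 to 1063, with 3491 to 7077 genes at an unadjusted p under 0.05. The replicate number as a block gave 1137 higher and 10 lower and kept Elf5 and Ehf. Same-numbered arrays correlated at -0.03 and 0.13 in their deviations from the group means, so the numbers were not taken to pair the mice.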
